A study of Mus musculus with 6 samples.

Results

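Aminoacyl-tRNA synthetases are the enzymes that load each amino acid onto its transfer RNA. The genes described are 36 listed members of this family, 20 whose products work mainly in the cytosol and 16 whose symbols end in 2 and whose products work in mitochondria. Of these, 34 could be measured, 18 cytosolic and 16 mitochondrial, among 10916 genes tested in all. Dars and Mars, the cytosolic enzymes for aspartate and methionine, had no usable probe set under those symbols and were not analysed here. The rule for the members uses gene function and no measured value, though the family was proposed with earlier results of these data known. Each gene was represented by its brightest probe set over the 6 arrays.

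RNA was taken from Ba/F3, a mouse pro-B cell line that normally depends on interleukin 3. The cells carried NCOR1-LYN, a fusion that contains the SRC-family kinase LYN, under a Retro-X Tet-on Advanced promoter. The 3 NCOR1-LYN cultures received doxycycline and the 3 control cultures did not, so effects of the drug and of the fusion cannot be told apart, and cells without the fusion gene that received the drug were not analysed here. The labels do not say whether the cells were a clone or a pool, nor the length of induction, and the cultures come from a single line, so the p-values measure only the spread between these cultures.

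Cytosolic synthetases supply charged transfer RNA for ribosomes that translate nuclear messages, and most of the mitochondrial ones are encoded by separate nuclear genes. Gars and Kars serve both places. Mitochondria have no glutaminyl-tRNA synthetase of their own and make that charged RNA in a detour through Ears2 and the amidotransferase Gatb, Gatc and Qrsl1. Several cytosolic synthetases sit in a multi-synthetase complex held together by Aimp1, Aimp2 and Eef1e1. Many cytosolic synthetase genes are known targets of ATF4, the transcription factor whose translation rises when uncharged transfer RNA or other stress leads to phosphorylation of eIF2. Mitochondrial synthetase genes are not usually counted among them.

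The deposited values are MAS5 signals, a linear intensity per probe set. Changes are NCOR1-LYN minus control of log2(signal + 64), which understates the changes of dim genes. Arrays with the same replicate number form pairs 1, 2 and 3. Both replicate 1 arrays stood apart from the other 4 over all genes: on a first principal component that held 58.1% of the variance, control 1 lay at -37.3 and NCOR1-LYN 1 at -25.1, and the others lay between 12.1 and 18.7. Median signals ran from 54.8 to 61.9, and the 3′ to 5′ ratio of the actin control was 1.17 and 1.15 on the replicate 1 arrays and 1.19 to 1.24 on the others. Of 10 B lymphoid markers 9 were on the array and 4 lay above the filter on dim genes (Cd79b, Igll1, Pax5 and Ptprc), while Cd79a, Ebf1, Vpreb1, Rag1 and Cd24a lay below it. Pax5 (7.65 to 124.8) and Igll1 (13.9 to 178.5) passed on their means only, with single arrays under the filter signal of about 47. The summed signal of the 9 markers, 10197 to 10749 in control and 8989 to 11092 in NCOR1-LYN cells, was mostly Ptprc, which all leukocytes express, and without Ptprc it was 612 to 874 over the 6 arrays. All 3 interleukin 3 receptor genes were measured, with summed signals of 20491 to 42339 in control and 24102 to 41613 in NCOR1-LYN cells. The 4 T and NK markers all lay below the filter, with sums of 59.5 to 111.2 and 63.2 to 72.1. The summed signal of 8 myeloid markers, 6 of them above the filter, was 2606 to 2688 in control and 7566 to 10491 in NCOR1-LYN cells, and was mostly Ngp and Prtn3. Over all 3 pairs 5 of the 6 rose, only Ltf past limma's test (adjusted p = 0.0179). Csf1r changed by -0.04 ± 0.19 (SE). The 6 mast and basophil markers, 3 above the filter, summed to 8241 to 15325 in control and 8171 to 9520 in NCOR1-LYN cells. Gata2 read 14084, 7775 and 7669 in controls and 6373, 4339 and 5671 in NCOR1-LYN cells. Of 5 erythroid markers 3 were on the array and 2 lay above the filter, with sums of 2307 to 5979 and 2208 to 3631. Klf1 read 5388, 2196 and 1893 in controls and 3276, 1928 and 2365 in NCOR1-LYN cells. The part of these markers in the synthetase results was not tested.

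The first comparison asked whether the synthetase genes differed between NCOR1-LYN and control cells over all 3 pairs. Of the 34 genes, 0 passed limma's test at an adjusted p of 0.05, against 0.0824% of all genes tested, and 0 passed at an unadjusted p under 0.05, against 4.75%. With the replicate number as a block, limma again called 0 of 34, against 0.824%. At an unadjusted p under 0.05 the blocked fit passed 3 genes, Cars, Wars and Sars2, against 11.3% of all genes. Their adjusted p in that fit was 0.39 for Cars, 0.42 for Wars and 0.319 for Sars2. The median log2 fold change was 0.16 over the 18 cytosolic genes, 0.00 over the 16 mitochondrial ones and -0.01 over all genes. Without control 1 the cytosolic median was -0.03. The groups did not overlap for 3 synthetase genes with NCOR1-LYN above control, Kars, Wars and Yars2, against 5.17% of all genes. They did not overlap in the other direction for Lars2 and Rars2, against 6.06%.

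**Figure D1:**
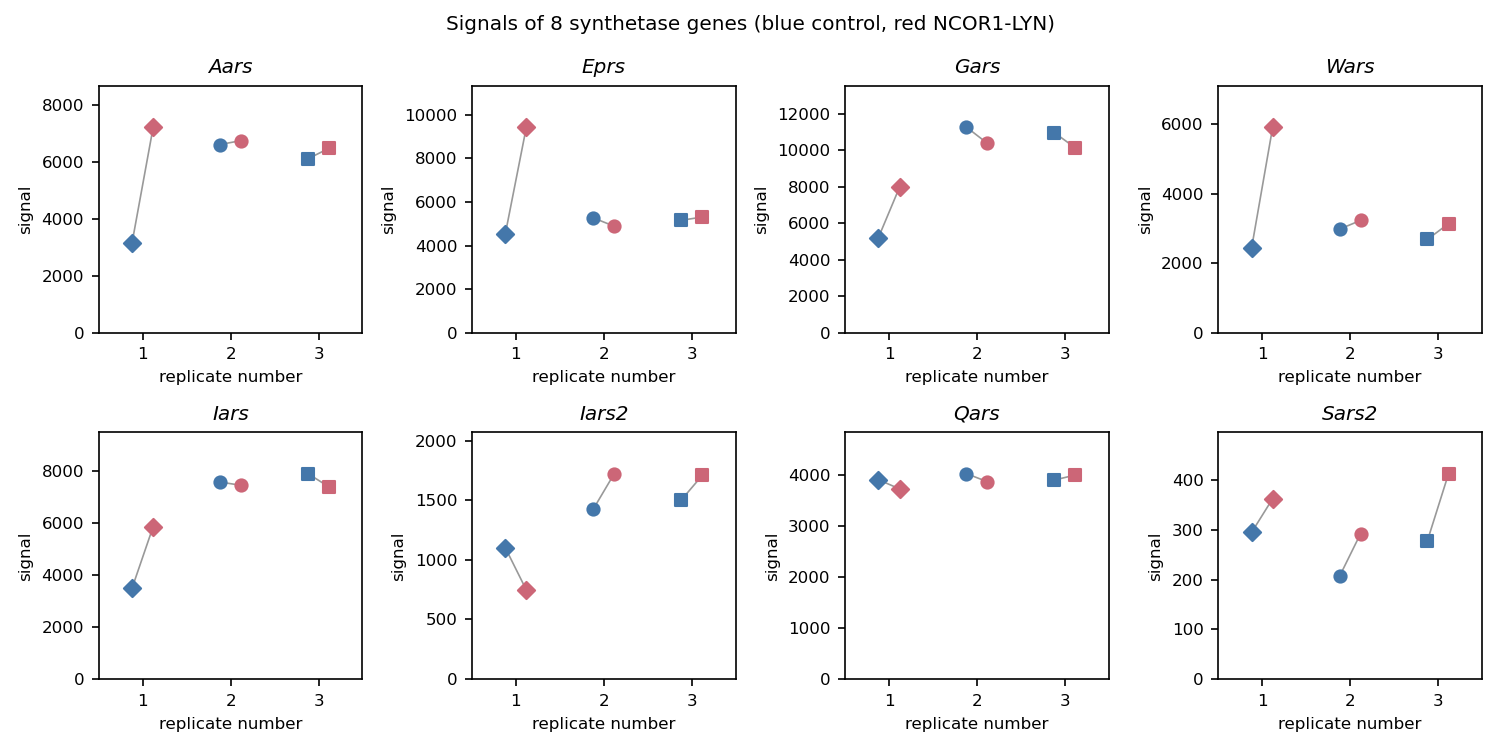
MAS5 signal, on a linear axis from 0, of 8 synthetase genes by replicate number, 1 point per array, control in blue and NCOR1-LYN in red, with a line joining each same-numbered pair. Control 1 is the lowest point for Aars, Eprs, Gars, Wars and Iars, NCOR1-LYN 1 is the lowest for Iars2, Qars is nearly flat on this probe set, and Sars2 is higher in NCOR1-LYN in every pair.

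The pairs were far from alike. In pair 1 the median change of the cytosolic genes was 0.67, with 16 higher and 2 lower in NCOR1-LYN cells and a range from -0.07 to 1.26. In pairs 2 and 3 it was -0.06 and -0.05, and the single values ran from -0.36 to 0.33. The mitochondrial medians were -0.06, 0.05 and 0.03 in pairs 1, 2 and 3, and those of all genes were -0.03, -0.02 and 0.01. The cytosolic minus the mitochondrial median was 0.73 in pair 1 and -0.11 and -0.08 in pairs 2 and 3. In pair 1 NCOR1-LYN was above control by at least 0.5 for 12 of 18 cytosolic and 0 of 16 mitochondrial genes, against 6.79% of all genes, and Iars2 was below it at -0.52. In pairs 2 and 3 both changes stayed within 0.35 of 0, in either direction, for 17 cytosolic and 12 mitochondrial genes, against 73.9% of all genes.

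**Figure D2:**
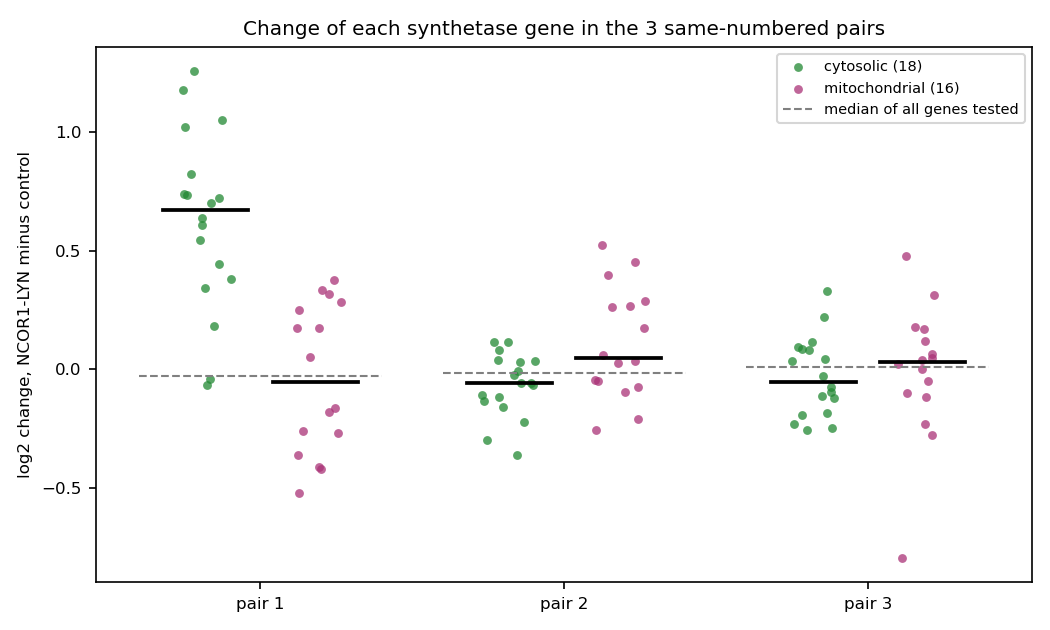
Log2 change of each synthetase gene, NCOR1-LYN minus control, in the 3 same-numbered pairs, with cytosolic genes in green and mitochondrial genes in purple. Black lines are group medians and dashed lines the medians of all genes tested: the cytosolic median is 0.67 in pair 1 and -0.06 and -0.05 in pairs 2 and 3.

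A second limma fit tested whether a gene's change in pair 1 differed from its mean change in pairs 2 and 3. The change was more positive in pair 1 for 13 of 18 cytosolic genes (72.2%) at an adjusted p of 0.05, against 5.22% of all genes, and more negative for 0, against 6.79%. Among the 16 mitochondrial genes 0 were more positive and 1, Iars2, was more negative (6.25%), a share near that of all genes. The test was weaker for these dimmer genes, with standard errors up to 0.33, against 0.15 for cytosolic ones. Vars2 at 0.68 ± 0.31 did not pass (adjusted p = 0.2 in limma), whereas Nars at 0.68 ± 0.10 did (0.00383). Calls were also more frequent among brighter genes: with the filter at the 60th percentile 610 of 7277 genes were more positive, against 570 of 10916. With arrays centred on their medians, the share of more positive changes among all genes called moved from 43.5% to 59.5%, and 16 cytosolic genes were called more positive. Pair 1 is a single pair, so its own spread was not measured, and the error of this test comes from replicates 2 and 3 alone. The split into pair 1 and the rest was made with the arrays already known to stand apart. Marker genes of other lists also passed it: the receptor chains Csf2rb and Csf2rb2 with differences of -1.56 ± 0.17 and -1.86 ± 0.12 (adjusted p of 0.000891 and 8.31e-05 in limma), Fcer1a of mast cells and basophils with -2.59 ± 0.17 (8.31e-05), and the myeloid genes Prtn3 and Ngp with -2.26 ± 0.13 and 2.33 ± 0.13 (6.28e-05 for both), as did the erythroid gene Klf1 with -0.77 ± 0.18 (0.0246). By list, the change was more negative in pair 1 for 2 of 3 receptor, 1 of 3 mast and basophil and 1 of 2 erythroid genes. It was more positive for 0 in those lists. Of 6 myeloid genes 1 was more positive and 1 more negative, and of 4 B lymphoid genes 0 passed. The marker genes named here were chosen after their values were seen, and their part in the synthetase differences was not tested. The median of this difference was 0.70 over the cytosolic, -0.07 over the mitochondrial and -0.02 over all genes.

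**Figure D3:**
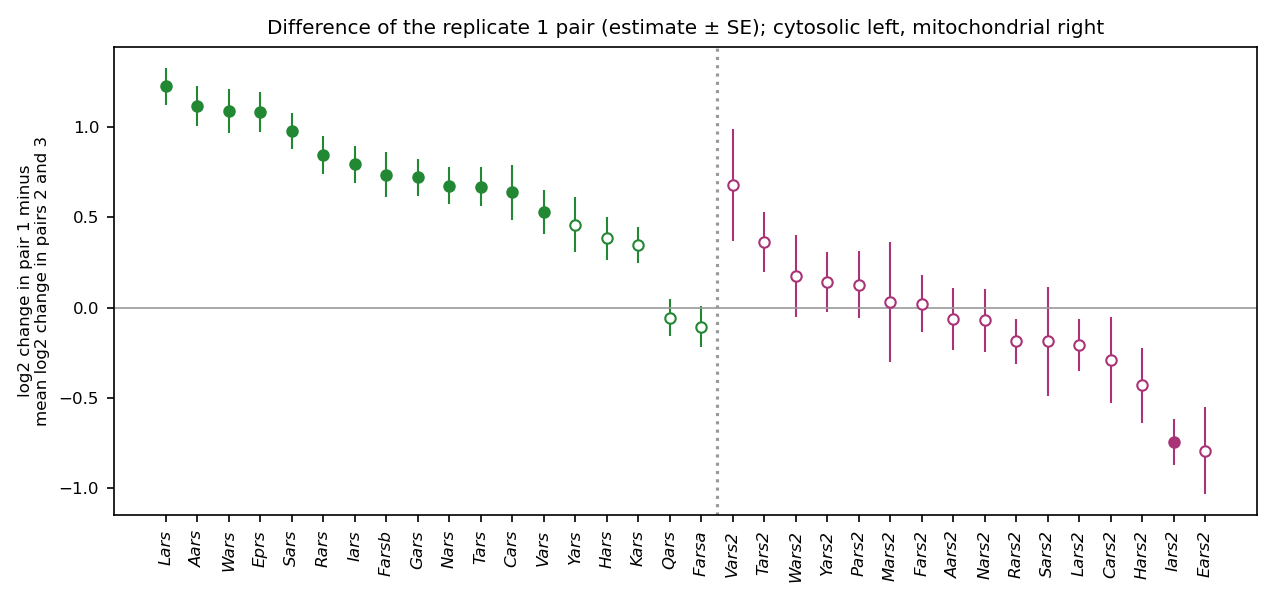
Change in pair 1 minus the mean change in pairs 2 and 3, with its standard error, for 18 cytosolic genes on the left and 16 mitochondrial genes on the right; filled points passed limma's test. The 13 filled cytosolic points lie between 0.53 and 1.23, and the single filled mitochondrial point, Iars2, lies at -0.75.

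For the cytosolic genes as a set, by medians, this difference lay mostly in control 1. In some of them, such as Eprs, Wars and Vars, NCOR1-LYN 1 stood further from its group. Control 1 was the lowest of the 6 arrays for 14 of 18 cytosolic genes but 2 of 16 mitochondrial ones, against 22.8% of all genes. NCOR1-LYN 1 was the highest for 8 cytosolic and 5 mitochondrial genes, against 21.0%. Over cytosolic genes the median log2 difference of control 1 from the mean of the other controls was -0.62, and that of NCOR1-LYN 1 from the other NCOR1-LYN arrays was 0.11. Single values behind the 0.11 had both signs, from -0.47 in Hars to 0.88 in Eprs. NCOR1-LYN 1 differed from the mean of controls 2 and 3 by a median of 0.05. For mitochondrial genes these differences were, in the same order, 0.11, 0.01 and 0.15. Both replicate 1 arrays lay below the other 4 for 6 cytosolic and 2 mitochondrial genes, against 21.4% of all genes, and above them for 1 cytosolic gene, Farsa, and 4 mitochondrial ones, against 26.8%. Control 1 was the highest array for Farsa and for 4 mitochondrial genes (Cars2, Ears2, Hars2 and Rars2), against 30.8%.

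In 6 of the 13 genes control 1 lay below, and NCOR1-LYN 1 above, all 4 arrays of replicates 2 and 3. Lars, the leucine enzyme and a member of the complex, read 4508, 7214 and 7230 in controls 1, 2 and 3, and 9235, 6175 and 6355 in NCOR1-LYN 1, 2 and 3. The changes were thus 1.02, -0.22 and -0.18, and the difference of pair 1 was 1.23 ± 0.10 (SE), with an adjusted p of 0.000231 in limma. Eprs, the complex's joint enzyme for glutamate and proline, read 4519, 5271 and 5158 in controls and 9440, 4884 and 5307 in NCOR1-LYN cells. Only NCOR1-LYN 1 was far from the rest, and the difference was 1.09 ± 0.11 (adjusted p = 0.000676 in limma).

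Wars, the tryptophan enzyme, which interferon also induces, had the largest overall change of the family. Its signals were 2437, 2978 and 2684 in controls and 5916, 3230 and 3137 in NCOR1-LYN cells, so the groups did not overlap. The overall change was 0.53 ± 0.25 (SE, 3 arrays a group; adjusted p = 0.999 in limma), and NCOR1-LYN was above control in all 3 pairs, by 1.26, 0.11 and 0.22. Aars, the alanine enzyme, read 3157, 6605 and 6105 in controls and 7217, 6743 and 6474 in NCOR1-LYN cells. Its NCOR1-LYN signals were alike, whereas control 1 stood below every other array. The overall change was 0.43 ± 0.27, and the difference of pair 1 was 1.12 ± 0.11 (adjusted p = 0.000596 in limma).

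Sars, the serine enzyme, went in opposite directions in the pairs. It read 5115, 7708 and 7421 in controls and 8362, 6258 and 6193 in NCOR1-LYN cells, giving changes of 0.70, -0.30 and -0.26. Over all 3 pairs the change was 0.05 ± 0.20 (adjusted p = 0.999 in limma). Without both replicate 1 arrays Sars fell by 0.28 ± 0.06 (adjusted p = 0.0212 in limma), the 1 call among 34 synthetase genes there, against 6.78% of all genes. Rars, the arginine enzyme of the complex, had a similar order of arrays, with 3553, 4590 and 4846 in controls and 5568, 4096 and 4064 in NCOR1-LYN cells. Its difference of pair 1 was 0.84 ± 0.11 (adjusted p = 0.0017 in limma).

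In 5 further genes both replicate 1 arrays lay below the other 4, control 1 more so. Gars, the glycine enzyme, read 5215, 11281 and 10980 in controls and 7977, 10386 and 10134 in NCOR1-LYN cells. Iars, the isoleucine enzyme of the complex, read 3500, 7581 and 7903 in controls and 5867, 7450 and 7388 in NCOR1-LYN cells. Nars, the asparagine enzyme, read 8440, 13749 and 13715 in controls and 12362, 12504 and 12593 in NCOR1-LYN cells. In each of these the controls 2 and 3 were slightly above NCOR1-LYN 2 and 3, and the pair 1 differences were 0.72 ± 0.10, 0.80 ± 0.10 and 0.68 ± 0.10, with adjusted p of 0.0029, 0.0019 and 0.00383 in limma.

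Cars, for cysteine, read 1146, 2417 and 2350 in controls and 2077, 2484 and 2971 in NCOR1-LYN cells. Its NCOR1-LYN signal exceeded control in every pair, and the overall change was 0.40 ± 0.29 (adjusted p = 0.999 in limma). Farsb, the beta subunit of the phenylalanine enzyme, read 1871, 4008 and 3985 in controls and 3168, 4245 and 3773 in NCOR1-LYN cells. Farsa, the alpha subunit of the same enzyme, did the opposite: both replicate 1 arrays were the highest, with 2947, 2037 and 2072 in controls and 2860, 2089 and 2216 in NCOR1-LYN cells. The pair 1 difference was 0.74 ± 0.12 for Farsb (adjusted p = 0.00644 in limma) and -0.11 ± 0.11 for Farsa (adjusted p = 0.614).

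In the remaining 2 of the 13, a single replicate 1 array lay outside the other 4. Tars, for threonine, read 2995, 5321 and 4979 in controls and 4988, 5291 and 5397 in NCOR1-LYN cells. Vars, for valine, read 1868, 2008 and 2086 in controls and 2450, 1914 and 1770 in NCOR1-LYN cells. In Tars only control 1 stood apart, and in Vars only NCOR1-LYN 1 did. Their pair 1 differences were 0.67 ± 0.11 and 0.53 ± 0.12, with adjusted p of 0.00542 and 0.0245 in limma. Cars and Vars no longer passed when no filter on dim genes was used (adjusted p of 0.106 and 0.0721 in limma), and Vars also did not without control 3 (0.0682).

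Besides Farsa, 4 cytosolic genes did not pass that test. Kars, the lysine enzyme, read 4772, 5346 and 5402 in controls and 6508, 5787 and 5718 in NCOR1-LYN cells, without overlap. Its overall change was 0.21 ± 0.12 (adjusted p = 0.999 in limma), and the pair 1 difference was 0.35 ± 0.10 (adjusted p = 0.056). Hars, for histidine, read 2880, 5087 and 5432 in controls and 3664, 4880 and 5322 in NCOR1-LYN cells, and Yars, for tyrosine, read 1659, 2100 and 2205 in controls and 1891, 1617 and 1922 in NCOR1-LYN cells. Both had their lowest or near-lowest signals in control 1, with pair 1 differences of 0.39 ± 0.12 and 0.46 ± 0.15 (adjusted p of 0.0685 and 0.0834 in limma). Of 10 alternative settings, Kars passed in 5, Hars in 3 and Yars in 2. Qars, the glutamine enzyme, was nearly flat on its brightest probe set, with 3904, 4024 and 3898 in controls and 3725, 3864 and 3996 in NCOR1-LYN cells. Its overall change was -0.03 ± 0.10. Another Qars probe set of nearly the same signal read 4582, 3746 and 3285 in controls and 2953, 3700 and 4042 in NCOR1-LYN cells, with changes of -0.62, -0.02 and 0.29, so the flat pattern was not shared by both.

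**Figure D4:**
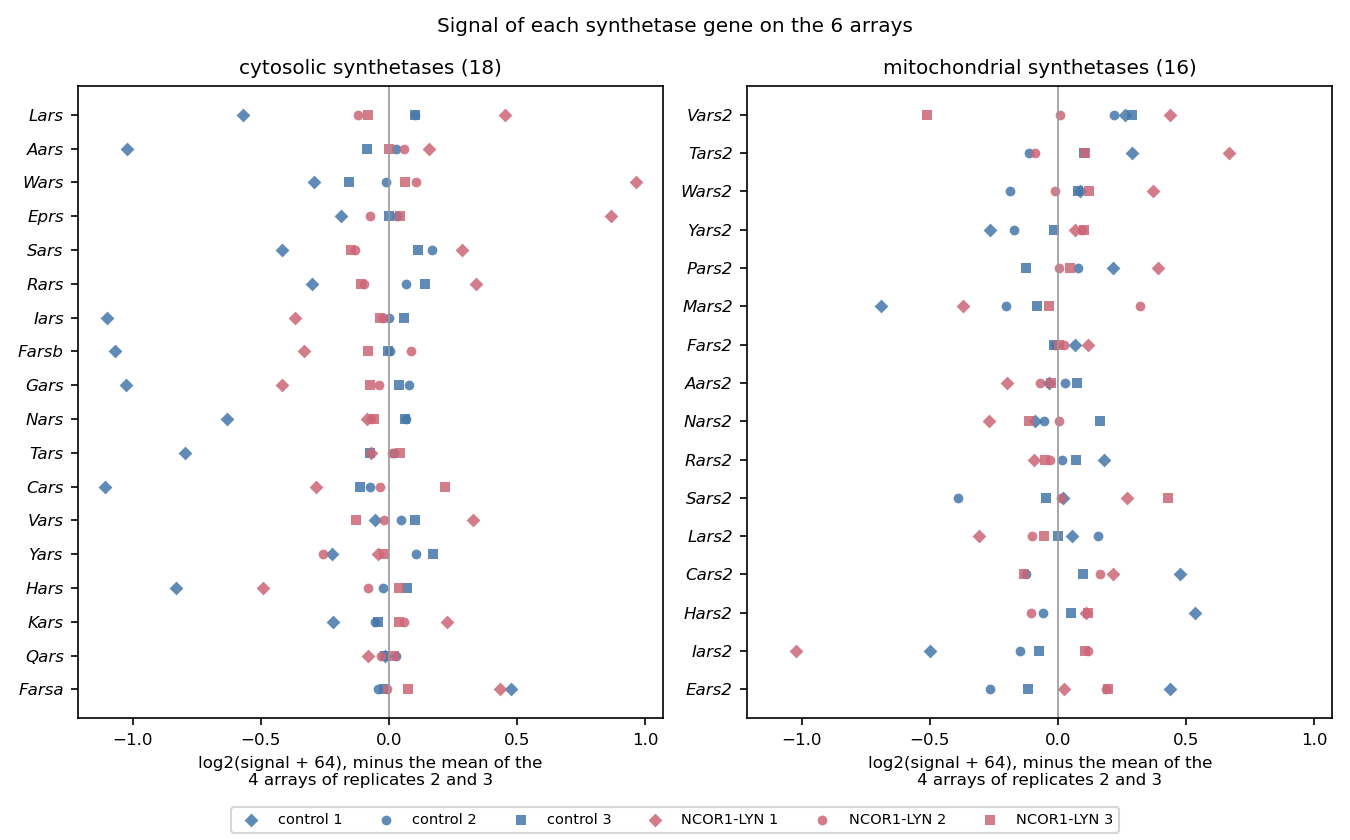
Log2(signal + 64) of each synthetase gene on the 6 arrays, minus the mean of the 4 arrays of replicates 2 and 3, control in blue and NCOR1-LYN in red, with diamonds for replicate 1, circles for 2 and squares for 3. Blue diamonds lie at the left for most cytosolic genes, while the diamonds of mitochondrial genes fall on both sides; genes are ordered by the pair 1 difference.

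The known roles of the cytosolic enzymes divided the 13 genes as follows, where 5.22% of all genes were more positive and 6.79% more negative in pair 1. In the multi-synthetase complex 4 of 6 measured members had a more positive change in pair 1 (Eprs, Iars, Lars and Rars, with Kars and Qars not passing), and outside it 9 of 12 did. Of the 11 measured genes listed as known ATF4 targets, 10 passed, Yars being the exception. Of the 7 other cytosolic genes 3 passed, Farsb, Rars and Vars. By the fold of the catalytic domain, over both compartments, 6 of 17 class I genes had a more positive change in pair 1 and 1 a more negative one. Of the class II genes 6 of 16 had a more positive one, and Eprs, which holds both kinds of domain, was counted in neither.

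Mitochondrial synthetase genes varied in both directions and around smaller values. Iars2, for isoleucine, was the only one with a pair 1 difference past the threshold: it read 1102, 1424 and 1500 in controls and 746.6, 1723 and 1708 in NCOR1-LYN cells. Both replicate 1 arrays were the lowest, NCOR1-LYN 1 more so, the reverse of the cytosolic Iars, whose lowest array was control 1. The overall change was -0.03 ± 0.31, and the pair 1 difference was -0.75 ± 0.13 (adjusted p = 0.0072 in limma). Ears2, for glutamate, had the same sign, with 308.7, 165.4 and 189.7 in controls, 216.1, 249.6 and 251.5 in NCOR1-LYN cells and a difference of -0.80 ± 0.24 (adjusted p = 0.0652). Hars2, for histidine, read 615.2, 386.2 and 422.3 in controls and 442.7, 372.4 and 444.8 in NCOR1-LYN cells, so control 1 was its highest array.

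Sars2, for serine, had the largest overall change among mitochondrial genes, with 294.7, 206.4 and 278.4 in controls and 362.7, 292.5 and 412.9 in NCOR1-LYN cells. NCOR1-LYN exceeded control in each pair, by 0.25, 0.40 and 0.48, though the groups overlapped. The change was 0.38 ± 0.18 (adjusted p = 0.999 in limma). Yars2, for tyrosine, read 577, 619.8 and 697.7 in controls and 743.6, 758.3 and 762.1 in NCOR1-LYN cells, a change of 0.24 ± 0.13 without overlap on this probe set. Another Yars2 probe set read 253.3, 519.1 and 655.6 in controls and 309.4, 844.9 and 663.4 in NCOR1-LYN cells, with overlap. The cytosolic counterpart of Yars2, Yars, changed by -0.12 ± 0.15. Neither change passed limma's test (adjusted p = 0.999 for both).

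Control signals were above NCOR1-LYN signals without overlap for the leucine and arginine enzymes, on the brightest probe sets. Lars2 read 1294, 1391 and 1241 in controls and 990.9, 1154 and 1195 in NCOR1-LYN cells, a change of -0.22 ± 0.13. A dimmer Lars2 probe set read 269.3, 209.7 and 214.3 in controls and 139.3, 202 and 219.4 in NCOR1-LYN cells, with overlap. Rars2 read 1520, 1353 and 1404 in controls and 1249, 1305 and 1287 in NCOR1-LYN cells, a change of -0.15 ± 0.11. Neither passed limma's test, with an adjusted p of 0.999 for both. Aars2, for alanine, was also lower in every pair, with 543.8, 570 and 591.1 in controls and 478.9, 528 and 547 in NCOR1-LYN cells. NCOR1-LYN was below control in all 3 pairs for these 3 mitochondrial and 0 cytosolic genes, against 18.9% of all genes. It was above control in all 3 pairs for 4 cytosolic genes (Aars, Cars, Kars and Wars) and 6 mitochondrial ones (Fars2, Mars2, Sars2, Tars2, Wars2 and Yars2), against 15.9%.

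Tars2, for threonine, had both replicate 1 arrays above the other 4, reading 1575, 1175 and 1375 in controls and 2065, 1197 and 1377 in NCOR1-LYN cells. Fars2, for phenylalanine, was nearly flat, at 683, 642.8 and 641.5 in controls and 709.4, 660.5 and 651.2 in NCOR1-LYN cells. Vars2, for valine, read 270.6, 260.4 and 276.3 in controls and 313.6, 216 and 131.7 in NCOR1-LYN cells. A single array, NCOR1-LYN 3, set its pair 3 change of -0.80, and the gene's second probe set gave 0.80 in that pair, so the direction for Vars2 was not settled. Cars2, Mars2, Nars2, Pars2 and Wars2, for cysteine, methionine, asparagine, proline and tryptophan, had overlapping groups and changes in single pairs between -0.28 and 0.52. Mars2 read 53.4 to 172.5, near the filter on dim genes at a signal of about 47.

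Enzymes for the same amino acid in the 2 compartments could be set against each other in 16 combinations of 15 cytosolic and 15 mitochondrial genes, Fars2 and Eprs each entering more than 1. In pair 1 the cytosolic change was the larger in 14 combinations, with a median gap of 0.82, the exceptions being Farsa with Fars2 and Yars with Yars2. In pairs 2 and 3 it was the larger in 6, with a median gap of -0.04. Alanine gave the contrast plainly: Aars changed by 1.18 and Aars2 by -0.16 in pair 1.

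Probe sets other than the brightest gave further measurements of the same RNA on the same arrays. For the cytosolic genes past the pair 1 test, 14 of 14 further probe sets above the filter, in 8 genes, had the sign of the brightest one. For the other cytosolic genes 5 of 7 did, and for the mitochondrial genes that did not pass, 5 of 8. The brightest probe sets of Aars and Iars (_s_at) and of Farsb and Wars (_x_at) carry suffixes for probes that may match other genes or sequences. Those of Farsa, Hars, Qars, Sars, Fars2, Hars2, Tars2 and Yars2 (_a_at) are marked as matching more than 1 transcript of the gene.

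Of 6 measured partners of the synthetases, 1 had a more positive change in pair 1 and 1 a more negative one. Over all genes the shares were 5.22% and 6.79%, and 1 call among 6 genes is already a large share. Aimp1, a scaffold of the complex, read 2986, 4120 and 3752 in controls and 4430, 4053 and 3563 in NCOR1-LYN cells, and its change was more positive in pair 1 by 0.61 ± 0.14 (adjusted p = 0.0226 in limma). Gatb, a subunit of the mitochondrial amidotransferase, read 360.4, 258.5 and 245.6 in controls and 248.6, 382.1 and 330.5 in NCOR1-LYN cells, with a difference of -0.85 ± 0.22 (adjusted p = 0.0402). In Aimp1 control 1 was the lowest and NCOR1-LYN 1 the highest array, as in Eprs, Kars, Lars and Rars but not in Iars or Qars. Aimp2 had the same order, as did Aars, Sars and Wars outside the complex, so it was not particular to the complex. Aimp2, Eef1e1, Qrsl1 and Gatc did not pass (adjusted p of 0.055, 0.163, 0.113 and 0.663 in limma). None of the 6 partners passed limma's test over all 3 pairs.

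Genes known to answer amino acid shortage through ATF4 were taken as a list of their own, without the synthetases. Of 32 measured genes, 21 (65.6%) had a more positive change in pair 1, against 5.22% of all genes, and 0 a more negative one, against 6.79%, and the median changes were 0.65, 0.00 and -0.05 in pairs 1, 2 and 3. Atf4 itself read 7724, 13208 and 11868 in controls and 15475, 13853 and 13251 in NCOR1-LYN cells. Asns, which makes asparagine, read 5416, 13367 and 12993 in controls and 10753, 11824 and 12503 in NCOR1-LYN cells. Control 1 was the lowest array for both, and for 23 of the 32 genes, against 22.8% of all genes. Asns, Atf4, Ddit3 and Trib3 were picked after their values were seen: their pair 1 differences were 1.10, 0.88, 2.38 and 2.24. Nupr1, a stress-induced chromatin protein with the largest overall change on the list, changed by 0.87 ± 0.75 (adjusted p = 0.999 in limma). Without both replicate 1 arrays, 4 genes of the list fell, Atf5, Ddit3, Slc7a5 and Ddit4, against 3.62% of all genes called lower there, and 0 rose, against 3.16%.

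**Figure D5:**
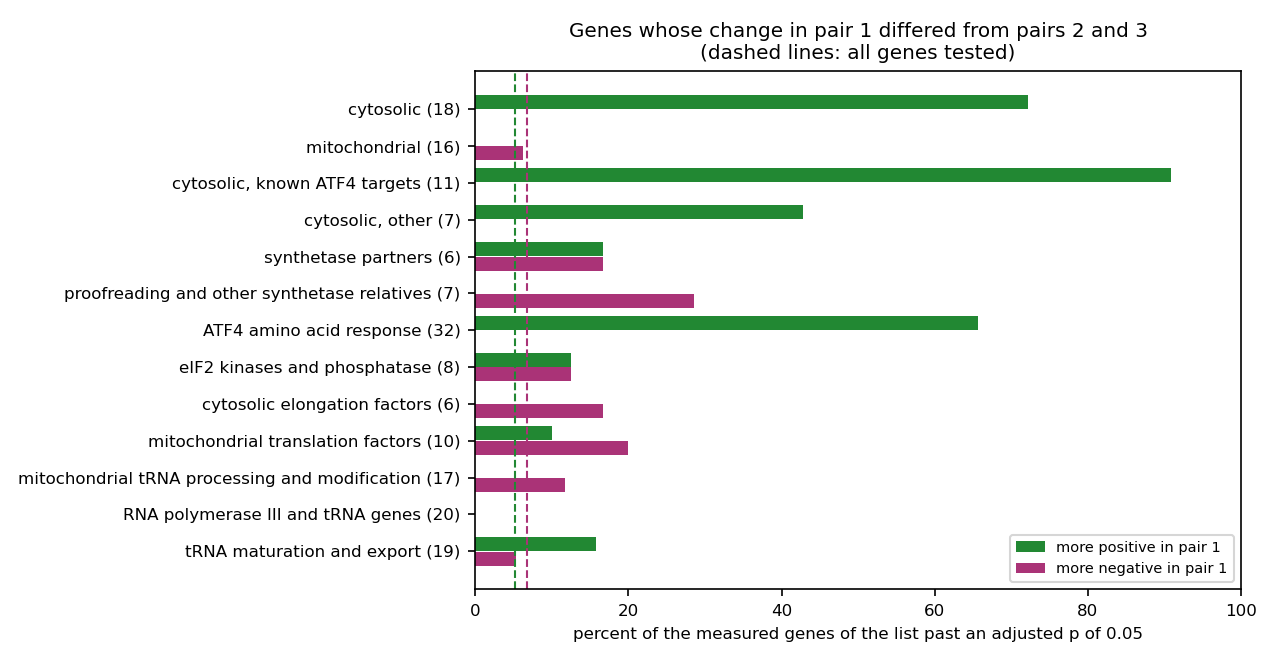
Percent of the measured genes of each list (number in brackets) whose change in pair 1 was more positive, in green, or more negative, in purple, than in pairs 2 and 3 at an adjusted p of 0.05 in limma, with dashed lines for all genes tested at 5.22% and 6.79%. The green bars reach 72.2% for the cytosolic synthetases and 65.6% for the ATF4 list, while the mitochondrial synthetases have a purple bar at 6.25%.

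Other steps of transfer RNA use were counted in the same way, against 5.22% of all genes more positive and 6.79% more negative, and with so few genes a list 1 or 2 calls are a large share. RNA polymerase III and its factors, which transcribe the transfer RNA genes, had 0 of 20 measured genes past the pair 1 test in either direction. Factors for maturation and export of transfer RNA had 3 of 19 more positive (15.8%) and 1 more negative. Cytosolic elongation factors had 0 of 6 more positive and 1 more negative, the kinase Eef2k. Mitochondrial translation factors had 1 of 10 more positive and 2 more negative (20.0%). A list for processing and modification of mitochondrial transfer RNA had 0 of 17 more positive and 2 more negative (11.8%). That list also held Polrmt, Tfam, Tfb1m and Tfb2m, which serve mitochondrial transcription or ribosomal RNA. The 7 measured proofreading enzymes and other relatives of the synthetases had 0 more positive and 2 more negative (28.6%), Dtd1 and Dtd2, which remove D-amino acids from transfer RNA. Among 8 kinases, regulators and phosphatase subunits of eIF2, Gcn1 was more positive and Eif2ak4, the GCN2 kinase that senses uncharged transfer RNA, was more negative. No gene of these lists passed limma's test over all 3 pairs, with or without the block. The genes with the largest overall change per list were Polr3e (0.28 ± 0.18), Rpp40 (0.30 ± 0.13), Eef1b2 (-0.06 ± 0.10), Guf1 (0.33 ± 0.16), Hsd17b10 (-0.38 ± 0.14), Pstk (-0.31 ± 0.21) and Impact (-0.44 ± 0.43).

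Because many cytosolic genes are known ATF4 targets, their promoters were searched for the letters TGATGNAA, the core of the composite element that ATF4 and C/EBP proteins bind, on both strands. Windows of 300 bases, 250 before and 50 after the annotated transcript start, came from RefSeq on GRCm38.p6, and 3.97% of 32851 windows held a match. Of the measured genes, 11 cytosolic and 14 mitochondrial ones had a window, and 7 and 2 did not. A match stood in 5 cytosolic genes, among them Gars, Iars, Tars and Yars, and in 0 mitochondrial genes. It stood in 4 of the 7 cytosolic genes that passed the pair 1 test and had a window, and in 1 of the 4 that did not pass, Yars. Another 6 cytosolic genes that passed had no window, and counts this small were not compared. All 5 genes with a match belong to the 7 listed ATF4 targets with a window. Those targets were listed from prior knowledge of ATF4, so this overlap is not a separate result. The part of ATF4 in the pair 1 differences was not tested. In the separate list of ATF4 amino acid response genes, 6 of 27 genes with a window held a match (22.2%), in 6 of their 34 windows. Counts by gene take a match in any window of the gene, which over all genes held for 1219 of 27025, whereas 3.97% is a share of windows. With 14 mitochondrial genes, 0 matches cannot be told apart from the share of 3.97%. The matches of Gars, Tars, Iars and Yars are printed because they stood in cytosolic windows and in 0 mitochondrial ones. The 30 bases around each run 5′ to 3′ on the gene's strand, with the motif or its reverse complement TTNCATCA in capitals.
Gars (chr6:55037960-55037989, plus strand): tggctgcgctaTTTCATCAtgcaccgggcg
Tars (chr15:11399655-11399684, minus strand): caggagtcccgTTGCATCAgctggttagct
Iars (chr13:49682126-49682155, plus strand): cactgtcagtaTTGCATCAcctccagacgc
Yars (chr4:129189895-129189924, plus strand): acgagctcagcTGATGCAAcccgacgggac

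The Gars match starts 30 bases and the Tars match 15 bases before the annotated start. For Yars the annotated start used is not the outermost one of the gene. The bases before the start of Gars and Tars, the 2 genes with a match just ahead of it, give the wider context, with the same letters in capitals.
Gars, bases before the start (chr6:55037751-55038000, plus strand): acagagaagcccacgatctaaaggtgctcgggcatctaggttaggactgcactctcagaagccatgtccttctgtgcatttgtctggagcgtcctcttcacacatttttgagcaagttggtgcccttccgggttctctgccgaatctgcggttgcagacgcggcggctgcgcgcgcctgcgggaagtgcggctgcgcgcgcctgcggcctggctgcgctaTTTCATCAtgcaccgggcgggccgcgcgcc
Tars, bases before the start (chr15:11399659-11399908, minus strand): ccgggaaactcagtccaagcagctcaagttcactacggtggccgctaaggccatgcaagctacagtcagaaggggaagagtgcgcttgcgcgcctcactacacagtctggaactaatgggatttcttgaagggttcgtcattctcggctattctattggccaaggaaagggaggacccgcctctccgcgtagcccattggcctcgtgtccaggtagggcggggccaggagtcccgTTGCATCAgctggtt
A match describes these letters in this window and does not show that a factor binds there, and a window without one says nothing of the factor.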

How the data were processed

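RNA of 6 Ba/F3 cultures was hybridised to Affymetrix Mouse Genome 430 2.0 arrays. The deposited values are intensities on a linear scale, made with MAS5 by the authors per the submitters' processing notes, with the version not given in the sources used here. Groups and replicate numbers come from the sample titles. Of 45101 probe sets, 34945 were annotated to a single gene symbol, covering 18193 genes. The brightest probe set by mean over the 6 arrays stood for a gene, and genes under the 40th percentile of mean log2(signal + 64) were left out. limma 3.58.1 in R 4.3.3 was fitted on 10916 genes (lmFit, then eBayes with trend) with Benjamini-Hochberg adjustment over all of them, two-sided, at 0.05. Residual degrees of freedom were 4, and 2 with the replicate block or the pair 1 interaction. By rule, named genes were all synthetases with a usable probe set and every measured partner. For other lists the rule named up to 4 called genes or else the one with the largest change. Further genes were named with their values known, among them genes past the pair 1 test or the fit without both replicate 1 arrays.

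Same-numbered arrays were taken as pairs because their deviations from the group means correlated by 0.618, 0.411 and 0.439, each above 0.1. Control 2 with NCOR1-LYN 3 gave 0.396 and control 3 with NCOR1-LYN 2 gave 0.485, so numbers 2 and 3 were not told apart, and the labels name no shared day or batch. Deviations within a group sum to 0. With both replicate 1 arrays apart, numbers 2 and 3 could therefore hardly fail the limit of 0.1 in any pairing. Their pairing, and the counts over all 3 pairs, rest on the numbers in the titles. The members and gene lists were chosen with earlier results of these data known, so lists are described by counts and medians. Alternatives were the offset, the filter, the normalization, the probe set rule, array weights and leaving out arrays. No detection calls were used, and the 3 arrays per group limit the precision. The sequence around the promoter match of 1 gene is not reported here.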

Additional observations from a re-analysis of the deposited data

How the results depend on the processing

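With the replicate block, 0 of the 34 synthetase genes passed, as without it, and the block changed no call for these genes. The count stayed at 0 in every alternative run except the one that left out both replicate 1 arrays, where it was 1: Sars turned to -0.28. That alternative was fitted on fewer arrays. Leaving out single arrays gave 0 calls each time, cytosolic medians of -0.03 to 0.28 and mitochondrial medians of -0.047 (without NCOR1-LYN replicate 1) to 0.079 (without control replicate 1). The cytosolic median of 0.16 lost its sign without control 1 (-0.03), with array weights (-0.02) and without the whole of pair 1 (-0.04). The 13 cytosolic genes with a more positive change in pair 1 numbered 11 without a filter to 16 with median centring, and 12 to 16 when an array of replicates 2 or 3 was left out. Of the 13, 11 passed in all 10 alternatives, all but Cars and Vars. Mitochondrial genes with a more positive change in pair 1 numbered 0 to 1, the 1 being Vars2 without NCOR1-LYN replicate 2, and 1, Iars2, was more negative in every alternative. Over all genes the pair 1 test called 496 genes without a filter and 1311 with it. The fits of the pair 1 test without an array of replicates 2 or 3, and the blocked fits on rescaled arrays, were chosen after seeing the data. Dim probe sets, Mars2 among them, limit what can be seen.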
